A study of Mus musculus with 7 samples.

Results

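The collagen genes of the mouse were followed across 7 RNA-seq libraries of PanMeso cells, mesothelial cells derived from the pancreas that express enhanced green fluorescent protein (eGFP). Members were the protein-coding genes whose symbol is Col, a number, a and a number, which gave 44 of the 54532 genes in the count table. The libraries fell into 3 groups: eGFP+ cells sorted from orthotopic tumours grown with CT1BA5 pancreatic cancer cells (n = 2), eGFP+ cells sorted in the same way from tumours grown with BMFA3 pancreatic cancer cells (n = 2), and parental cells from culture that were never in a tumour (n = 3). All groups come from the 1 PanMeso line, carry eGFP and were grown before use in a medium with serum, mouse epidermal growth factor, hydrocortisone and insulin; the strain and age of the host mice are not labelled. The labels also do not say whether replicates were separate tumours, animals or cultures, so p-values measure the spread between these libraries. Cells sorted from a tumour also differ from parental cells by dissociation and flow sorting, which cannot be told apart here from growth in the tumour. In bulk RNA, fewer cells of a type and less RNA per cell cannot be told apart either.

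Collagens are secreted proteins in which 3 chains wind into a triple helix, and the chains of 1 helix can be products of different genes. Fibrillar collagens (types I, II, III, V, XI, XXIV and XXVII) build the banded fibres of connective tissue, type IV forms the sheet of the basement membrane under epithelia and mesothelium, type VI forms beaded filaments around cells, and FACIT collagens (fibril-associated collagens with interrupted triple helices) sit on the surface of fibrils. Fibroblasts of pancreatic tumours are known for laying down a dense fibrillar matrix, and mesothelial cells rest on a basement membrane.

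Library totals were 14327365 to 16981596 counts in CT1BA5, 14792189 to 16501058 in BMFA3 and 10096839 to 19210598 in parental libraries. Collagen genes took 0.867 to 1.05% of all counts. Of 9 mesothelial markers, 9 fell in CT1BA5 and 8 in BMFA3 against parental cells, where 35.1% and 29.9% of all tested genes fell, and their summed level was 873 to 900.3 CPM (read counts scaled to library size) in CT1BA5, 1968 to 1969 CPM in BMFA3 and 11611 to 12703 CPM in parental libraries. Summed pericyte and smooth muscle markers stood at 268 to 302, 174 to 178 and 109 to 119 CPM in the same order of groups, with Abcc9 at 0 in every library. Summed tissue fibroblast markers stood at 22.6 to 24.3, 60.4 to 63.2 and 24.4 to 29.4 CPM, with Lum at no more than 0.0779 CPM. Of 5 tested fibroblast markers, 3 rose and 2 fell in CT1BA5, and 2 rose and 2 fell in BMFA3 against parental cells. Among all tested genes 70.7% and 59.0% were called in these comparisons. Leukocyte markers summed to 19.7 to 21.1, 24.3 to 28.9 and 11.9 to 15.2 CPM, and Ptprc, Cd3e and Itgam had 0 counts in every library. The 3 tested leukocyte markers (Cd68, Csf1r and S100a8) all rose in CT1BA5, and 2 of them, Csf1r and S100a8, in BMFA3. Of all tested genes, 35.5% rose in CT1BA5 and 29.2% in BMFA3. The rise of Cd68 in CT1BA5 was small, at 1.26-fold (adjusted p = 0.047, quasi-likelihood test of edgeR, Benjamini-Hochberg adjusted). S100a8 had 1.16 and 2.26 CPM in CT1BA5, 6.40 and 4.37 CPM in BMFA3 and 0 counts in parental libraries. It passed the filter on low counts through the tumour groups alone, so its calls as higher are no separate support. Epithelial tumour markers summed to 12.4 to 14.8, 14.8 to 17.6 and 60.5 to 77.5 CPM, with Epcam at no more than 0.389 CPM. Of 4 tested, 1 rose and 2 fell in each tumour group, where 70.7% (CT1BA5) and 59.0% (BMFA3) of all tested genes were called. Krt7 and Cdh1, which held most of the sum, fell in both. Cldn4 rose in CT1BA5 (0.906 and 0.934 CPM, parental at most 0.147). Muc1 rose in BMFA3 (1.46 and 1.26 CPM, parental at most 0.509). Cldn4 passed the filter on low counts through CT1BA5 alone and Muc1 through BMFA3 alone, so these rises are no separate support. Endothelial markers summed to 14.3 to 15.6, 23.7 to 24.8 and 96.5 to 105 CPM, nearly all of it from Kdr, with Pecam1 at no more than 0.305 CPM. Acinar markers summed to at most 0.291 CPM. The part of these cell types in the collagen values was not tested.

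The make-up of the collagen transcripts differed between the groups, with more of it fibrillar in tumour-derived cells and more of it type IV and type VI in parental cells. Scaled to exon length (CPM per kb of the union of exons), fibrillar genes made up 85.4% of the collagen level in CT1BA5, 73.1% in BMFA3 and 49.6% in parental cells. Type IV genes made up 7.88%, 14.2% and 26.0% of it, and type VI genes 0.830%, 8.54% and 18.7%. FACIT genes stayed a small share, at 2.50% in CT1BA5, 2.24% in BMFA3 and 2.88% in parental cells. These shares are means over libraries and are given without a test. Libraries of 1 group lay close together, and the 3 groups did not overlap in the fibrillar, type IV or type VI share.

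**Figure D1:**
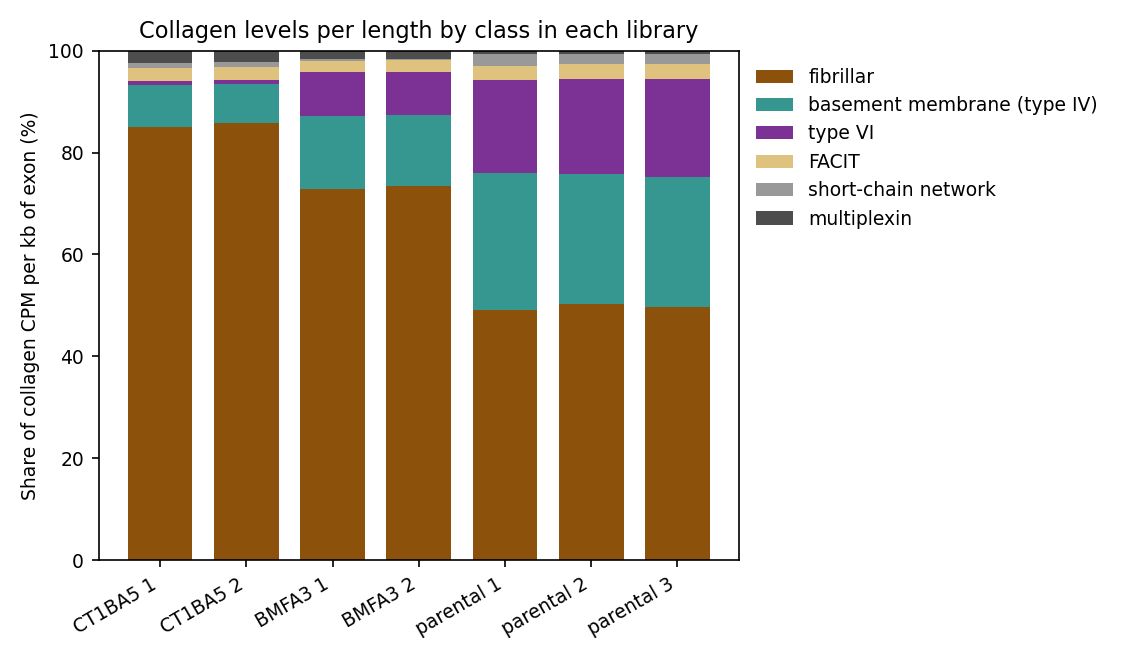
Share of the collagen level per kb of exon (%, y axis) held by 6 collagen classes in each of the 7 libraries (x axis). The fibrillar share was 85.0 to 85.9% in CT1BA5, 72.9 to 73.4% in BMFA3 and 49.0 to 50.2% in parental libraries, and the type VI share was lowest in CT1BA5, at 0.779 to 0.881%.

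The sum over all collagen genes was 11246 ± 442 CPM in CT1BA5, 8640 ± 196 CPM in BMFA3 and 8922 ± 616 CPM in parental cells (SD; n = 2, 2 and 3), so that BMFA3 and parental libraries overlapped. Summed fibrillar genes reached 9698 ± 304, 6679 ± 124 and 5089 ± 380 CPM in the same order. Summed type IV genes reached 815 ± 78.4, 1107 ± 41.9 and 2163 ± 108 CPM, and summed type VI genes 62.9 ± 6.96, 476 ± 18.0 and 1098 ± 100.2 CPM. The FACIT sum was 328 ± 25.2 CPM in CT1BA5, 230 ± 4.64 CPM in BMFA3 and 329 ± 37.2 CPM in parental cells, where CT1BA5 and parental libraries overlapped.

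Of the 44 genes, 30 passed the filter on low counts. All 3 groups reached the filter's level of 0.677 CPM for 23 of the 30, while 3 reached it in CT1BA5 cells alone, 1 in BMFA3 alone and 1 in parental cells alone. Those of 1 group alone were Col6a3, Col10a1 and Col23a1 in CT1BA5, Col11a2 in BMFA3 and Col20a1 in parental cells. Col7a1 reached it in both tumour groups but not in parental cells, and Col24a1 in BMFA3 and parental cells but not in CT1BA5. A member that passed through only some of the groups was likely to differ. The counts that follow thus describe the tested members and support nothing about all 44. Each gene was called at a Benjamini-Hochberg adjusted p under 0.05 in edgeR's quasi-likelihood test over 13784 genes. In CT1BA5 against parental cells, 14 collagen genes rose, 13 fell and 3 did not pass, or 90% called against 70.7% of all tested genes. In BMFA3 against parental cells, 8 rose, 16 fell and 6 did not pass, or 80.0% called against 59.0% of all tested genes. In CT1BA5 against BMFA3 cells, 16 were higher, 8 lower and 6 did not pass, or 80.0% called against 50.8% of all tested genes. With both tumour groups averaged against parental cells, 9 rose, 13 fell and 8 did not pass, or 73.3% called against 69.6% of all tested genes. The median log2 fold change of the tested collagen genes was -0.28, -0.48, 0.44 and -0.20 in these 4 comparisons, beside 0.0063 or less in size over all tested genes.

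Read together over parental cells, 8 collagen genes rose in both tumour groups, 11 fell in both and 4 fell in BMFA3 but rose in CT1BA5. Over all tested genes these patterns took 22.2%, 23.6% and 1.60%. These 4 were Col5a2, Col8a2, Col16a1 and Col23a1. No collagen gene rose in BMFA3 and fell in CT1BA5, a pattern of only 1.73% of all tested genes, so its absence here says little. Another 2 passed as higher in CT1BA5 alone (Col27a1 and Col6a3), 2 as lower in CT1BA5 alone (Col24a1 and Col15a1), 1 as lower in BMFA3 alone (Col12a1), and Col11a2 and Col9a3 passed in neither. In that order, 11.7%, 9.77%, 4.61% and 19.5% of all tested genes had these patterns. The 2 tumour comparisons share their parental libraries, so these counts are not independent of each other.

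**Figure D2:**
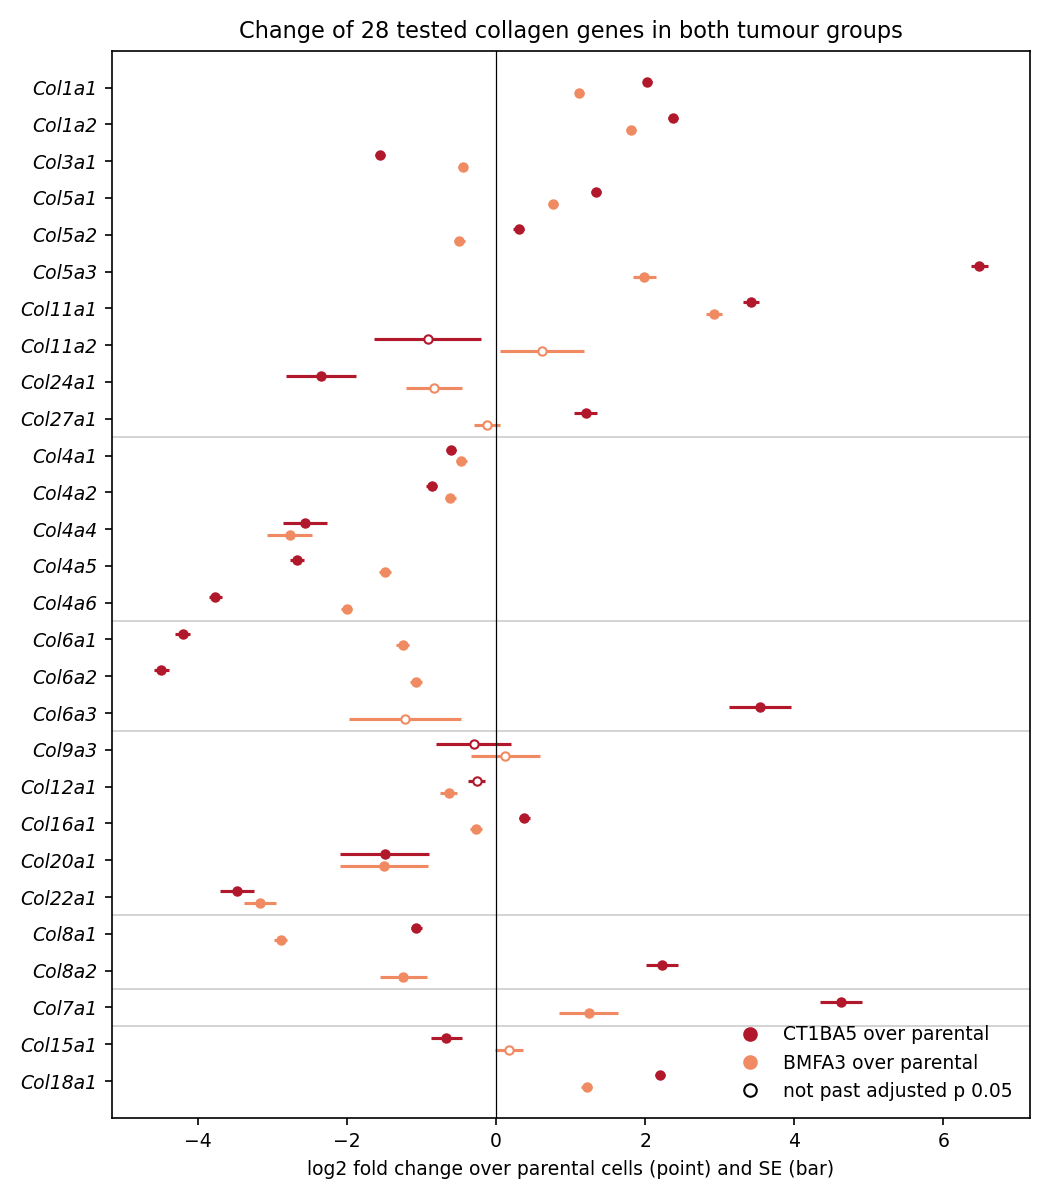
Log2 fold change over parental cells (x axis) with its SE (bar) for 28 of the 30 tested collagen genes (rows, grouped by class with grey lines), in CT1BA5 (dark red) and BMFA3 (orange) cells. Open points did not pass an adjusted p of 0.05, all 5 type IV genes lie left of 0 in both groups, and Col10a1 and Col23a1 are left out because a group of each had 0 counts.

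More fibrillar genes rose than fell in both tumour groups, but they did not move together. Of the 11 fibrillar genes 10 were tested, and 7 rose and 2 fell in CT1BA5 against parental cells, while 5 rose and 2 fell in BMFA3 against parental cells. Higher calls made up 35.5% and 29.2% of all tested genes in these comparisons, and lower calls 35.1% and 29.9%. The median log2 fold change of the class was 1.27 in CT1BA5 and 0.69 in BMFA3. Of 6 tested pericyte and smooth muscle markers, 6 rose in CT1BA5, and 3 rose and 1 (Mcam) fell in BMFA3, and the part of such cells was not tested. Rgs5 passed the filter on low counts through the tumour groups alone and Cspg4 through CT1BA5 alone, so their rises are no separate support. CT1BA5 cells also stood above BMFA3 cells in 7 of the 10 and below in 2, where 25.5% of all tested genes were higher and 25.3% lower.

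Type I collagen is the main fibre of connective tissue, and both of its genes rose in both tumour groups. Col1a1 encodes its alpha-1 chain (ENSMUSG00000001506, GRCm38 chromosome 11, 94936224 to 94953042, plus strand). It had 5451 and 5206 CPM in CT1BA5 libraries, 2893 and 2777 CPM in BMFA3 libraries and 1199, 1309 and 1417 CPM in parental libraries. Col1a2, the gene of the alpha-2 chain (ENSMUSG00000029661, chromosome 6, 4504814 to 4541544, plus strand), had 1586 and 1558, then 1083 and 1047, and 297, 295 and 317 CPM in the same groups. Both genes were highest in CT1BA5 and lowest in parental libraries, with no overlap. The log2 fold change of Col1a2 was 2.37 ± 0.064 (SE) in CT1BA5 and 1.81 ± 0.064 in BMFA3 against parental cells (adjusted p = 3.99e-17 and 6.08e-15, quasi-likelihood test of edgeR, Benjamini-Hochberg adjusted). That of Col1a1 was 2.03 ± 0.061 and 1.12 ± 0.061 (adjusted p = 2.51e-16 and 5.73e-12, same test).

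Type III collagen went the other way. Col3a1, whose chain forms homotrimers in fibres mixed with type I (ENSMUSG00000026043, chromosome 1, 45311538 to 45349706, plus strand), had 798 and 796 CPM in CT1BA5, 1725 and 1710.3 CPM in BMFA3 and 2134, 2409 and 2503 CPM in parental libraries. The order of the groups was thus the reverse of that of Col1a1, again without overlap. Col3a1 changed by -1.56 ± 0.069 on the log2 scale in CT1BA5 and by -0.45 ± 0.066 in BMFA3 against parental cells (adjusted p = 9.75e-14 and 7.85e-06, quasi-likelihood test of edgeR, Benjamini-Hochberg adjusted). In parental cells Col3a1 had the highest level per exon length of all collagen genes, at 239 CPM per kb, next to 199 CPM per kb for Col1a1, and the ranges of these 2 genes over libraries (217 to 255 and 183 to 216) did not overlap. In BMFA3 cells Col1a1 led with 432 CPM per kb and Col3a1 came next with 175. In CT1BA5 cells Col1a1 led with 812 CPM per kb, and Col1a2 with 127, Col5a2 with 117 and Col3a1 with 81.2 CPM per kb followed. The place of Col1a2 in these orders depends on the length used, since its exon union of 12426 bp is longer than its longest transcript of 5348 bp; per longest transcript it had 294 CPM per kb in CT1BA5 cells and was still next to Col1a1.

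**Figure D3:**
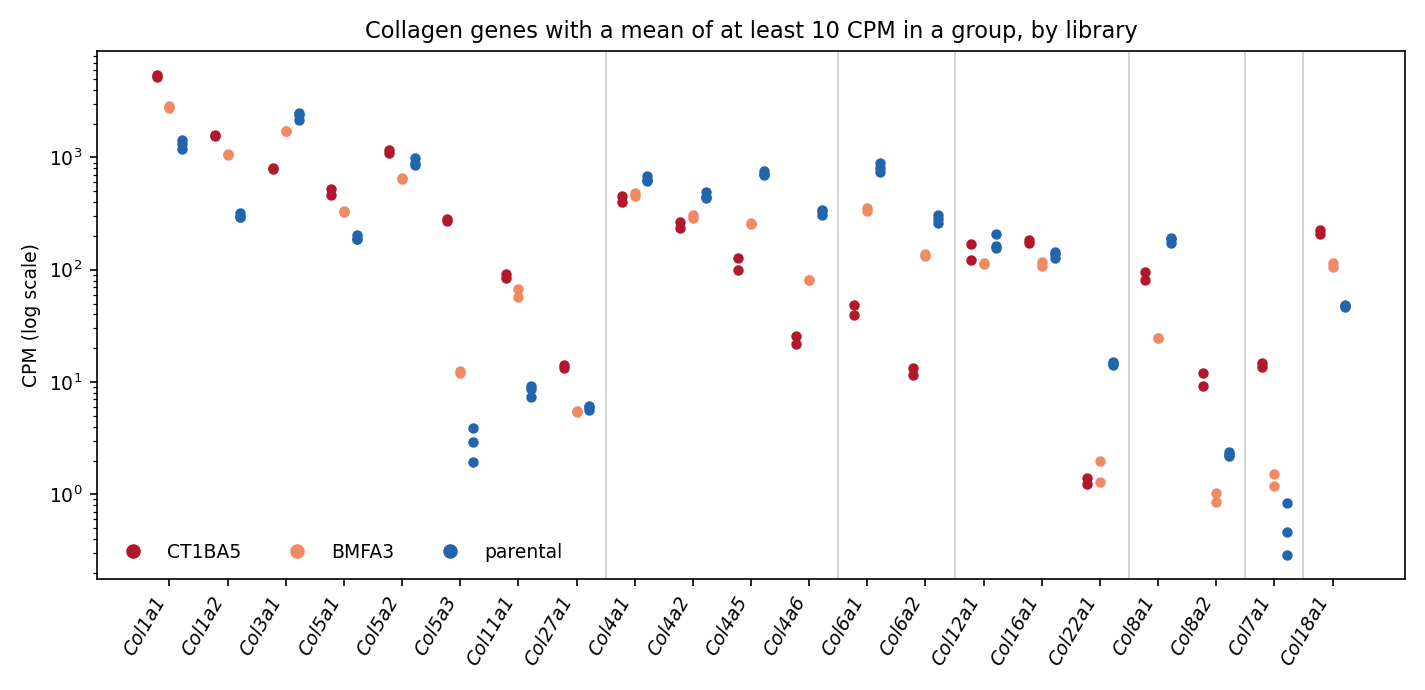
Level in each library (CPM, y axis, log scale) of the 21 collagen genes that averaged at least 10 CPM in a group (x axis, grouped by class with grey lines), in CT1BA5 (dark red), BMFA3 (orange) and parental (blue) cells. Col5a3 spans 1.93 CPM in a parental library to 284 CPM in a CT1BA5 library. Over all libraries Col12a1 stays within 112 to 209 CPM and Col16a1 within 108 to 184 CPM.

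The chains of type V collagen, a minor component that sits inside type I fibrils, parted from each other. Col5a3, the gene of the alpha-3(V) chain (ENSMUSG00000004098, chromosome 9, 20770050 to 20815067, minus strand), had 284 and 269.6 CPM in CT1BA5, 12.4 and 12.1 CPM in BMFA3 and 1.93, 2.91 and 3.88 CPM in parental libraries. It was at a low level in every parental library and rose in both tumour groups, by far the more in CT1BA5. Its log2 fold change was 6.48 ± 0.117 in CT1BA5 and 1.99 ± 0.155 in BMFA3 against parental cells, and 4.50 ± 0.113 in CT1BA5 against BMFA3 (adjusted p = 1.13e-19, 1.28e-09 and 1.14e-16, quasi-likelihood test of edgeR, Benjamini-Hochberg adjusted). Among collagen genes with counts in every group, 6.48 was the largest fitted rise in CT1BA5 cells. Col5a1, the gene of the alpha-1(V) chain, had 523 and 463 CPM in CT1BA5, 332 and 329 CPM in BMFA3 and 189, 189 and 205 CPM in parental libraries. It rose by 1.34 ± 0.068 and 0.76 ± 0.068 on the log2 scale in CT1BA5 and BMFA3 cells against parental cells (adjusted p = 7.36e-13 and 8.62e-09, same test). The transcript 2810430I11Rik overlaps Col5a1 by 628 bp, and counting by strand is not stated, so reads of the 2 cannot be told apart there.

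Col5a2, the gene of the alpha-2(V) chain, did not keep 1 direction. It had 1164 and 1089.9 CPM in CT1BA5, 647 and 651 CPM in BMFA3 and 855, 896 and 990.1 CPM in parental libraries. Parental libraries lay between the tumour groups with no overlap. Its log2 fold change was 0.30 ± 0.070 in CT1BA5 and -0.49 ± 0.071 in BMFA3 against parental cells, and 0.80 ± 0.078 in CT1BA5 against BMFA3 (adjusted p = 0.000755, 6.63e-06 and 6.53e-08, quasi-likelihood test of edgeR, Benjamini-Hochberg adjusted). The rise in CT1BA5 was not called with library size alone in place of TMM scaling (log2 0.068, adjusted p = 0.403). Col5a2 and Col3a1 are neighbours on chromosome 1 that point at each other tail to tail, 24.6 kb apart with no protein-coding gene between them, and in CT1BA5 cells Col5a2 rose while Col3a1 fell.

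Among the minor fibrillar genes, Col11a1, whose chain nucleates fibrils in cartilage and is found in tumour stroma, had 92.6 and 84.2 CPM in CT1BA5, 67.3 and 57.7 CPM in BMFA3 and 9.20, 8.66 and 7.36 CPM in parental libraries. It rose in both tumour groups with no overlap, by 3.42 ± 0.104 in CT1BA5 and 2.92 ± 0.106 in BMFA3 on the log2 scale (adjusted p = 2.76e-16 and 9.97e-15, quasi-likelihood test of edgeR, Benjamini-Hochberg adjusted). Col27a1, a gene with a shorter helix, had 13.3 and 14.3 CPM in CT1BA5, 5.48 and 5.43 CPM in BMFA3 and 5.98, 5.68 and 6.18 CPM in parental libraries. It rose in CT1BA5 (log2 1.20 ± 0.156, adjusted p = 1.03e-06, same test), and its difference of -0.13 ± 0.174 in BMFA3 did not pass (adjusted p = 0.552). Col24a1 averaged 0.473 CPM in CT1BA5, 1.33 CPM in BMFA3 and 2.35 CPM in parental cells and fell in CT1BA5 (adjusted p = 0.000174, same test). It passed the filter on low counts through BMFA3 and parental cells alone, so its call as lower in CT1BA5 is no separate support. Col11a2 stayed under 1 CPM in every library, and Col2a1, the main collagen gene of cartilage, was left untested with at most 9 counts in a library.

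Sequences upstream of a few of these genes are shown because Col5a3 had the largest fitted rise among collagen genes with counts in every group, Col3a1 fell in both tumour groups, and the paired type IV and type VI genes moved together. Each is the 250 bases before the RefSeq start of the gene (GRCm38.p6), written 5′ to 3′ on the gene's strand. Capitals mark a match on either strand to CCAAT, to the GC box GGGCGG, to the TATA box TATAAA or to the AP-1 letters TGANTCA. Of 32851 mouse windows of that length, 33.8% hold CCAAT, 32.7% GGGCGG, 12.4% TATAAA and 6.75% TGANTCA. Such windows were found for 35 of the 44 genes, and in the first window of each, 12 hold CCAAT, 21 GGGCGG, 5 TATAAA and 1 TGANTCA. A match describes letters in the window and is not evidence of a site in use. For the fibrillar genes, the window of Col5a3 (chr9:20815068-20815317, minus strand) holds 1 CCAAT and 2 GC boxes, and that of Col3a1 (chr1:45311288-45311537, plus strand) holds 1 TATA box.
Col5a3: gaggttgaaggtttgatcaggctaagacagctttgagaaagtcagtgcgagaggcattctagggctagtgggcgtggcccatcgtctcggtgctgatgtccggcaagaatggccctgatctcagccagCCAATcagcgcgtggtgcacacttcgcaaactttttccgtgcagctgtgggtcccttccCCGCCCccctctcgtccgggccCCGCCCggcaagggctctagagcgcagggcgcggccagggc
Col3a1: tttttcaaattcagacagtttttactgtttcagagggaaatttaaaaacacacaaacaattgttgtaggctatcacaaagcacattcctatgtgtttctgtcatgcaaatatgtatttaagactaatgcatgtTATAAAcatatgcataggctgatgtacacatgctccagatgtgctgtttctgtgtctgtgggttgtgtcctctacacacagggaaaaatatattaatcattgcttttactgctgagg

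All 5 tested type IV genes fell in both tumour groups, as did 35.1% of all tested genes in CT1BA5 and 29.9% in BMFA3. The class median was -2.56 on the log2 scale in CT1BA5 and -1.49 in BMFA3 against parental cells, and 3 of the 5 were lower in CT1BA5 than in BMFA3. Type IV chains are encoded by 3 gene pairs that each start head to head: Col4a1 and Col4a2 on chromosome 8, whose annotated starts lie 21 bp apart so that the genes overlap by 22 bp, Col4a3 and Col4a4 on chromosome 1, 72 bp apart, and Col4a5 and Col4a6 on chromosome X, 1309 bp apart. The fall differed in size between the pairs. The summed mesothelial markers, given above, fell in the same order of groups, and their part in this was not tested.

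Col4a1 and Col4a2, which encode the chains of the type IV helix found in nearly all basement membranes, fell the least. Col4a1 (chromosome 8, 11198423 to 11312826, minus strand) had 449.6 and 400.5 CPM in CT1BA5, 486 and 451 CPM in BMFA3 and 630.2, 623 and 690.0 CPM in parental libraries. Parental libraries were highest with no overlap, and the tumour groups lay close together. Its log2 fold change was -0.61 ± 0.071 in CT1BA5 and -0.47 ± 0.071 in BMFA3 against parental cells (adjusted p = 2.57e-07 and 1.16e-05, quasi-likelihood test of edgeR, Benjamini-Hochberg adjusted). Col4a2 had 266 and 236, then 308 and 289, and 435, 448 and 488 CPM in the same groups, and changed by -0.87 ± 0.073 and -0.62 ± 0.072 (adjusted p = 2.15e-09 and 4.26e-07, same test). The lower Col4a2 level in CT1BA5 against BMFA3 (log2 -0.25 ± 0.078, adjusted p = 0.012, same test) did not pass without BMFA3 replicate 1 (adjusted p = 0.138) or without CT1BA5 replicate 2 (adjusted p = 0.0859).

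Col4a5 and Col4a6, whose chains are the forms of kidney, smooth muscle and other specialised basement membranes, fell further. Col4a5 (ENSMUSG00000031274, chromosome X, 141475385 to 141689234, plus strand) had 127 and 99.8 CPM in CT1BA5, 259.7 and 257 CPM in BMFA3 and 711, 701 and 764 CPM in parental libraries. Col4a6 (ENSMUSG00000031273, chromosome X, 141165403 to 141474076, minus strand) had 25.9 and 21.8 CPM, 81.6 and 80.5 CPM, and 308, 330.4 and 338 CPM in the same groups. For both genes CT1BA5 libraries were lowest, BMFA3 libraries in between and parental libraries highest, with no overlap. Col4a5 changed by -2.67 ± 0.090 in CT1BA5 and -1.49 ± 0.084 in BMFA3 on the log2 scale, and by -1.18 ± 0.090 in CT1BA5 against BMFA3 (adjusted p = 1.24e-15, 9.57e-12 and 1.96e-09, quasi-likelihood test of edgeR, Benjamini-Hochberg adjusted). Col4a6 changed by -3.77 ± 0.090, -2.01 ± 0.079 and -1.76 ± 0.091 in these 3 comparisons (adjusted p = 6.92e-18, 3.86e-14 and 5.50e-12, same test).

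Of the remaining pair, Col4a4 averaged 1.13 ± 0.0483 CPM in CT1BA5, 0.971 ± 0.436 CPM in BMFA3 and 6.73 ± 0.921 CPM in parental cells (SD; n = 2, 2 and 3). It fell in both tumour groups, with log2 fold changes of -2.56 ± 0.300 and -2.77 ± 0.301 (adjusted p = 2.52e-07 and 1.51e-07, quasi-likelihood test of edgeR, Benjamini-Hochberg adjusted). Col4a3 reached no more than 9 counts in any library and was not tested. The window before Col4a5 (chrX:141475169-141475418, plus strand) holds 1 CCAAT and 1 GC box, and that before Col4a6 (chrX:141474077-141474326, minus strand) holds 1 GC box. They are shown because these genes share the stretch between their starts and fell in the same order of groups.
Col4a5: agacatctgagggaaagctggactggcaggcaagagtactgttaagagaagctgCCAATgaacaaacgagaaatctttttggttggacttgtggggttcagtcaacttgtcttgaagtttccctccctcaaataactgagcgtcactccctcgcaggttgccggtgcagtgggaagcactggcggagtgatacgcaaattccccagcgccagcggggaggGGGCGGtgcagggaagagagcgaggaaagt
Col4a6: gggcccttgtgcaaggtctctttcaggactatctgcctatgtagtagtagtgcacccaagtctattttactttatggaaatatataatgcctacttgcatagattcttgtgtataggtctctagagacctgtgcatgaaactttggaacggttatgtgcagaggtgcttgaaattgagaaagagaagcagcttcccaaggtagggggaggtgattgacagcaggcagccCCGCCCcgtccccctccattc

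Type VI genes gave the largest falls in CT1BA5 cells and also a rise. Of 6 type VI genes 3 were tested; Col6a1 and Col6a2 fell in both tumour groups, and Col6a3 rose in CT1BA5. Type VI filaments are built from alpha-1(VI), alpha-2(VI) and a further chain, most often alpha-3(VI). Col6a1 (ENSMUSG00000001119, chromosome 10, 76708792 to 76726168, minus strand) had 48.6 and 39.7 CPM in CT1BA5, 352 and 332 CPM in BMFA3 and 737, 813 and 895 CPM in parental libraries. Col6a2 (ENSMUSG00000020241, chromosome 10, 76595762 to 76623630, minus strand) had 13.5 and 11.5 CPM, 137 and 131 CPM, and 261, 282 and 304 CPM in the same groups. Both genes were lowest in CT1BA5 and highest in parental libraries, with wide gaps between groups. Col6a1 changed by -4.20 ± 0.102 in CT1BA5 and -1.25 ± 0.086 in BMFA3 on the log2 scale, and by -2.95 ± 0.100 in CT1BA5 against BMFA3 (adjusted p = 7.91e-18, 1.83e-10 and 1.00e-14, quasi-likelihood test of edgeR, Benjamini-Hochberg adjusted). Col6a2 changed by -4.49 ± 0.101, -1.07 ± 0.079 and -3.42 ± 0.102 (adjusted p = 2.29e-18, 4.94e-10 and 1.51e-15, same test).

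Col6a3 (ENSMUSG00000048126, chromosome 1, 90765923 to 90843971, minus strand) had 5.82 and 6.70 CPM in CT1BA5, 0.305 and 0.133 CPM in BMFA3 and 1.01, 0.655 and 0.147 CPM in parental libraries. Only the CT1BA5 libraries stood clear, while BMFA3 and parental libraries overlapped at levels of a few counts. Col6a3 passed the filter on low counts through CT1BA5 alone, so its calls as higher there are no separate support. Its log2 fold change was 3.54 ± 0.417 in CT1BA5 against parental and 4.76 ± 0.547 in CT1BA5 against BMFA3 cells (adjusted p = 2.73e-07 and 5.75e-07, quasi-likelihood test of edgeR, Benjamini-Hochberg adjusted). In BMFA3 against parental cells it was -1.22 ± 0.749 and did not pass (adjusted p = 0.171, same test). It did pass without parental replicate 3 (log2 -1.84, adjusted p = 0.0197) or with a replicate block (log2 -1.85, adjusted p = 0.0285). Col6a4, Col6a5 and Col6a6, alternatives to alpha-3(VI), had at most 2 counts in a library. Col6a1 and Col6a2 lie on the same strand, 85.2 kb apart, with no protein-coding gene between them. The window before Col6a1 (chr10:76726045-76726294, minus strand) holds the 1 AP-1 match found in the first windows of the collagen genes, and that before the upstream start of Col6a2 (chr10:76623631-76623880, minus strand) holds 1 GC box. The first window of Col6a2 (chr10:76623405-76623654, minus strand), which was used in the counts over genes, holds 3 GC boxes and is not shown.
Col6a1: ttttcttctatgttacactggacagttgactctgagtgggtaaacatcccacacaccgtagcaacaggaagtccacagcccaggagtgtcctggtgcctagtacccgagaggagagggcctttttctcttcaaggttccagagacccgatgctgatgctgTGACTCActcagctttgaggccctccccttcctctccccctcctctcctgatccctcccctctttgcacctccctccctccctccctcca
Col6a2: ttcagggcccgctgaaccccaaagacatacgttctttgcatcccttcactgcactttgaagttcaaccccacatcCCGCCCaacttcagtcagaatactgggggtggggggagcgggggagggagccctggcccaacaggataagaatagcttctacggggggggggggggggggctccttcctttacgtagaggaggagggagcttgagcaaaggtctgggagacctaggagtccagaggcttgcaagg

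FACIT genes moved in both directions, and Col22a1 fell the most. Of 9 genes 5 were tested; 1 rose and 2 fell in CT1BA5, and 4 fell in BMFA3 against parental cells, with class medians of -0.30 and -0.64 on the log2 scale. Among all tested genes 70.7% were called in CT1BA5 and 59.0% in BMFA3, so the FACIT count in CT1BA5 is no more than that of genes at large. Col12a1, which coats type I fibrils, had 171 and 123 CPM in CT1BA5, 112 and 115 CPM in BMFA3 and 157, 163 and 209 CPM in parental libraries. CT1BA5 libraries were far apart and overlapped with the parental ones, and BMFA3 libraries were lowest. Col12a1 fell in BMFA3 (log2 -0.64 ± 0.120, adjusted p = 0.000127, quasi-likelihood test of edgeR, Benjamini-Hochberg adjusted) and did not pass in CT1BA5 (log2 -0.26 ± 0.118, adjusted p = 0.053), where it did pass without CT1BA5 replicate 1 (log2 -0.52, adjusted p = 0.00028), without parental replicate 1 (adjusted p = 0.0242) or without parental replicate 2 (adjusted p = 0.0405). Its higher level in CT1BA5 against BMFA3 (log2 0.38 ± 0.130, adjusted p = 0.0208, same test) did not pass without BMFA3 replicate 1 (adjusted p = 0.098), BMFA3 replicate 2 (adjusted p = 0.0824) or CT1BA5 replicate 1 (adjusted p = 0.431).

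Col16a1, another fibril-associated chain, had 171 and 184 CPM in CT1BA5, 118 and 108 CPM in BMFA3 and 127, 138 and 144 CPM in parental libraries. Like Col5a2, its parental libraries lay between the tumour groups without overlap. Its log2 fold change was 0.38 ± 0.074 in CT1BA5 and -0.27 ± 0.076 in BMFA3 against parental cells (adjusted p = 0.000149 and 0.00453, quasi-likelihood test of edgeR, Benjamini-Hochberg adjusted). The fall in BMFA3 did not pass without BMFA3 replicate 2 (adjusted p = 0.101), nor the rise in CT1BA5 with library size alone as scaling (log2 0.14, adjusted p = 0.0837). Col22a1, found at tissue junctions such as that of muscle and tendon, had 1.23 and 1.40 CPM in CT1BA5, 1.28 and 1.99 CPM in BMFA3 and 14.8, 14.3 and 14.96 CPM in parental libraries. It fell to about the same low level in both tumour groups, with log2 fold changes of -3.48 ± 0.229 in CT1BA5 and -3.17 ± 0.215 in BMFA3 (adjusted p = 4.80e-11 and 1.50e-10, same test). Col20a1 and Col9a3 reached at most 1.47 CPM in a library, and the call of Col20a1 as lower was lost when any 1 of several libraries was left out.

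The short-chain collagens, which form hexagonal networks, split by gene. Col8a1, the alpha-1 chain of type VIII collagen of vessel walls and the cornea, had 94.5 and 80.2 CPM in CT1BA5, 24.9 and 24.5 CPM in BMFA3 and 189.9, 174 and 187 CPM in parental libraries. It fell in both tumour groups, more in BMFA3 (log2 -2.89 ± 0.089) than in CT1BA5 (log2 -1.07 ± 0.078), with an adjusted p of 7.97e-16 and 2.49e-10 in the quasi-likelihood test of edgeR (Benjamini-Hochberg). Col8a2, its partner chain, had 11.97 and 9.27 CPM in CT1BA5, 1.04 and 0.861 CPM in BMFA3 and 2.39, 2.18 and 2.26 CPM in parental libraries. It rose in CT1BA5 (log2 2.23 ± 0.216, adjusted p = 1.72e-08) and fell in BMFA3 (log2 -1.25 ± 0.315, adjusted p = 0.0021, same test). Col10a1, the collagen of hypertrophic cartilage, had 5.50 and 5.45 CPM in CT1BA5, 0.305 and 0.994 CPM in BMFA3 and 0 counts in all 3 parental libraries. Against a floor of 3 counts over the parental group it was at least 82.1-fold higher in CT1BA5 (155 counts) and at least 9.52-fold higher in BMFA3 (20 counts). It was called higher in both, but it passed the filter through CT1BA5 alone, so the call there is no separate support. Col10a1 lies wholly inside Nt5dc1 on the opposite strand, and counting by strand is not stated.

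Col7a1, the anchoring fibril collagen that ties basement membrane to the matrix below, had 14.9 and 13.7 CPM in CT1BA5, 1.52 and 1.19 CPM in BMFA3 and 0.460, 0.291 and 0.834 CPM in parental libraries. It rose by 4.63 ± 0.278 in CT1BA5 on the log2 scale (adjusted p = 1.16e-11, quasi-likelihood test of edgeR, Benjamini-Hochberg adjusted). Col7a1 passed the filter on low counts through the tumour groups alone, so its calls as higher over parental cells are no separate support. Its 2.36-fold rise in BMFA3 (adjusted p = 0.0115, same test) did not pass without parental replicate 2 (adjusted p = 0.0538) or BMFA3 replicate 1 (adjusted p = 0.0979). Col18a1, a multiplexin of basement membranes whose end fragment is endostatin, had 228 and 209.9 CPM in CT1BA5, 115 and 106 CPM in BMFA3 and 46.9, 47.6 and 48.6 CPM in parental libraries. Unlike the type IV genes of the same membrane, it rose in both tumour groups with no overlap, by 2.20 ± 0.071 in CT1BA5 and 1.21 ± 0.072 in BMFA3 on the log2 scale (adjusted p = 6.24e-16 and 1.87e-11, same test). Slc19a1, with a mean of 12.5 CPM over the libraries, overlaps Col18a1 on the opposite strand over 8825 bp. Counting by strand is not stated, so how far this overlap affects the value of Col18a1 is not known. Col15a1, the other multiplexin, averaged 4.90, 8.84 and 7.69 CPM in CT1BA5, BMFA3 and parental cells and was called lower in CT1BA5 (adjusted p = 0.00697, same test), a call lost without parental replicate 3 (adjusted p = 0.0606) or CT1BA5 replicate 2 (adjusted p = 0.0605).

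Col23a1, a transmembrane collagen, had 1.36 and 0.857 CPM in CT1BA5, 0 counts in both BMFA3 libraries and 0.0920, 0.291 and 0.245 CPM in parental libraries. With 32, 0 and 10 counts in the 3 groups, BMFA3 was at least 2.33-fold lower than parental cells and CT1BA5 at least 11.9-fold higher than BMFA3. Col23a1 passed the filter through CT1BA5 alone, so its calls as higher there are no separate support. Its call as lower in BMFA3 did not pass without either BMFA3 replicate (adjusted p = 0.11 and 0.101, quasi-likelihood test of edgeR, Benjamini-Hochberg adjusted), nor its call as higher in CT1BA5 without CT1BA5 replicate 1 (adjusted p = 0.0791). The other 14 members were at or near 0 and were not tested: besides Col2a1, Col4a3 and the 3 type VI genes, they were Col9a1, Col9a2, Col14a1 and Col19a1 (at most 9 counts in a library, 2 of them with 0 counts throughout), Col13a1, Col17a1 and Col25a1 (at most 11 counts, 1 with none) and Col26a1 and Col28a1 (at most 3 counts, 1 with none).

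The ratios of Col1a1 to Col1a2, Col5a1 to Col5a2, Col4a1 to Col4a2 and Col6a1 to Col6a2 differed between groups with no overlap of libraries. Per kb of exon, Col1a1 stood at 6.42 ± 0.127 times Col1a2 in CT1BA5, 5.04 ± 0.0237 times in BMFA3 and 8.17 ± 0.462 times in parental cells (SD; n = 2, 2 and 3). Col5a1 stood at 0.494 ± 0.0194, 0.575 ± 0.00705 and 0.241 ± 0.00792 times Col5a2, so the alpha-1(V) chain gained on alpha-2(V) in both tumour groups. Col4a1 stood at 1.502 ± 0.00562, 1.39 ± 0.0104 and 1.26 ± 0.0258 times Col4a2, and Col6a1 at 6.71 ± 0.221, 4.84 ± 0.0441 and 5.48 ± 0.113 times Col6a2. The ratios of these type IV and type VI partners moved by a smaller factor than the levels of their genes. Col6a3 stood at 0.0439 and 0.0617 times Col6a1 in CT1BA5 libraries, and at no more than 0.000317 times in BMFA3 and 0.000503 times in parental libraries. Per kb of exon Col6a3 was thus under Col6a1 in every library, and BMFA3 and parental libraries overlapped in this ratio.

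Another 3 ratios were chosen after their values were seen. Col3a1 stood at 0.100 ± 0.00306 times Col1a1 per kb of exon in CT1BA5, 0.405 ± 0.00917 times in BMFA3 and 1.20 ± 0.0261 times in parental cells. Col5a3 stood at 0.346 ± 0.0036, 0.0266 ± 0.000697 and 0.00442 ± 0.00117 times Col5a2, and Col4a5 at 5.64 ± 0.289, 3.78 ± 0.00412 and 2.65 ± 0.112 times Col4a6. These ratios are descriptions without a test, and none of the groups overlapped in them.

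**Figure D4:**
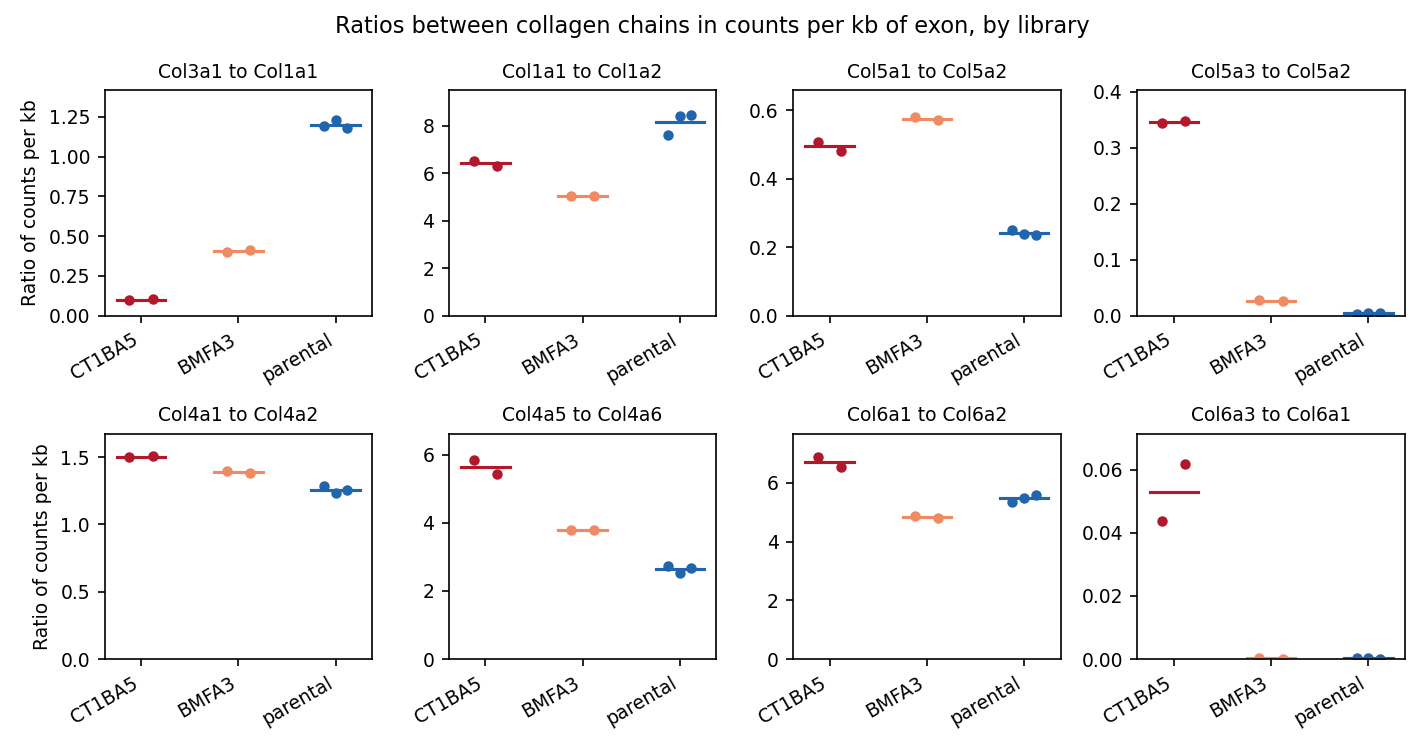
Ratio of 2 collagen genes in counts per kb of exon (y axes) in each library (points) with group means (lines), for CT1BA5, BMFA3 and parental cells (x axes). The ratio of Col3a1 to Col1a1 is 0.0979 and 0.102 in CT1BA5 libraries and 1.18 to 1.23 in parental libraries, and Col6a3 is above 0.04 times Col6a1 in CT1BA5 libraries alone.

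The classes also differ in the structure of their coding sequence. The choice of members by symbol did not use it, but the classes rest in part on helix structure, so this is a description. A collagen helix is a chain of triplets that each start with glycine, whose codons begin with GG, so a helix shows in the coding sequence as a run of such triplets. In the longest open reading frame of each gene (GENCODE M21 transcripts), the longest such run had a median of 338 triplets in fibrillar genes, and 216 and 217 in Col24a1 and Col27a1. It had 39 to 66 triplets in type IV genes, which broke into 22 to 27 runs of 5 or more triplets. In type VI genes it had 37 to 87 triplets, with 87 in both Col6a1 and Col6a2 and 45 in Col6a3, and in FACIT genes 32 to 113. Genes with 1 long unbroken run thus held the risen members Col1a1, Col1a2, Col5a1, Col5a3 and Col11a1 and also the fallen Col3a1, whose run of 344 triplets was the longest.

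Genes that make and handle collagen were taken from lists by role. Of 16 tested genes that fold and hydroxylate collagen chains, 14 rose and 1 fell in CT1BA5, where 35.5% of all tested genes rose and 35.1% fell. In BMFA3 against parental cells 13 rose and 1 fell, where 29.2% of all tested genes rose and 29.9% fell. Serpinh1, the collagen chaperone HSP47, had 2997 and 3002 CPM in CT1BA5, 2019 and 1976 CPM in BMFA3 and 1567, 1643 and 1659.8 CPM in parental libraries. P4ha1, a prolyl 4-hydroxylase, had 1173 and 1201, then 903 and 920.1, and 483, 469.9 and 487 CPM, and Plod2, a lysyl hydroxylase, 694 and 677, then 373 and 363, and 185, 186 and 207 CPM. All 3 were highest in CT1BA5 and lowest in parental libraries, and the log2 fold changes were 0.89 ± 0.054, 1.31 ± 0.061 and 1.83 ± 0.065 in CT1BA5 against parental cells (adjusted p = 1.35e-11, 2.3e-13 and 3.1e-15, quasi-likelihood test of edgeR, Benjamini-Hochberg adjusted). P3h2, a prolyl 3-hydroxylase known to act on type IV collagen, was the gene that fell, with 1.16 and 1.25 CPM in CT1BA5, 2.68 and 2.05 CPM in BMFA3 and 10.6, 9.61 and 10.2 CPM in parental libraries. Of 9 genes of secretion, 7 rose and 2 fell in each tumour group, beside these same shares of all tested genes, led by Creb3l1, a transcription factor of collagen secretion, at 292 and 283, then 218 and 215, and 72.1, 79.4 and 78.9 CPM. The genes that fell were Mia3 and Mia2, the receptors that load collagen into transport carriers, of which Mia2 had 50.3 and 43.8, then 55.0 and 51.9, and 62.3, 61.8 and 64.3 CPM. Its call as lower in BMFA3 (adjusted p = 0.0142, same test) was lost without parental replicate 3 (adjusted p = 0.0538) or BMFA3 replicate 2 (adjusted p = 0.164).

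The genes that process and cross-link collagen were split. Of 7 propeptide processing genes, 2 rose and 3 fell in CT1BA5, and 4 rose and 2 fell in BMFA3 against parental cells. With 70.7% and 59.0% of all tested genes called in these comparisons, the CT1BA5 count is near that of genes at large. Bmp1, the main C-propeptidase, had 926 and 899 CPM in CT1BA5, 521 and 495 CPM in BMFA3 and 128, 132 and 135 CPM in parental libraries. Pcolce, its enhancer, had 283 and 321, then 379.9 and 367, and 570.5, 617 and 614 CPM, and Adamts2, an N-propeptidase, 32.6 and 29.7, then 46.7 and 49.2, and 53.7, 66.1 and 66.0 CPM. Bmp1 thus rose while Pcolce and Adamts2 fell in both tumour groups (log2 2.79 ± 0.062, -0.99 ± 0.070 and -0.997 ± 0.097 in CT1BA5 against parental cells; adjusted p = 1.82e-18, 1.27e-10 and 1.71e-08, quasi-likelihood test of edgeR, Benjamini-Hochberg adjusted). Pcolce2, on the same list, rose in both, with 86.1 and 87.2, then 16.4 and 17.8, and 7.36, 9.61 and 11.4 CPM. Of 5 lysyl oxidase genes, 4 rose and 1 fell in CT1BA5, where 35.5% of all tested genes rose and 35.1% fell. In BMFA3 3 rose and 2 fell, where 29.2% of all tested genes rose and 29.9% fell. All 5 were higher in CT1BA5 than in BMFA3, where 25.5% of all tested genes were higher and 25.3% lower. Lox had 7574 and 6796 CPM in CT1BA5, 2839.6 and 2918 CPM in BMFA3 and 733, 777 and 801 CPM in parental libraries, while Loxl3 had 115 and 109.6, then 73.1 and 77.6, and 194, 214 and 214 CPM.

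Collagen receptors moved in both directions. Of 8 tested receptors, 4 rose and 4 fell in CT1BA5, and 4 rose and 2 fell in BMFA3 against parental cells, with 70.7% and 59.0% of all tested genes called. Itga11, the integrin chain that binds fibrillar collagen on fibroblasts, had 17.5 and 13.6 CPM in CT1BA5, 1.89 and 1.72 CPM in BMFA3 and 0.0920, 0 and 0.0981 CPM in parental libraries. With 3 counts in the parental group, the ratio was 236 (95% exact interval 80.4 to 1151, counting error only) in CT1BA5 and 27.1 (8.83 to 135) in BMFA3. Itga11 passed the filter on low counts through the tumour groups alone, so its calls as higher are no separate support. Itga10, a collagen-binding integrin chain of cartilage, had 0.194 and 0.701 CPM in CT1BA5, 0.975 and 1.33 CPM in BMFA3 and 72.0, 64.2 and 68.1 CPM in parental libraries. Its log2 fold change was -7.30 ± 0.22 in CT1BA5 and -5.88 ± 0.18 in BMFA3 (adjusted p = 1.6e-16 and 6.38e-16, quasi-likelihood test of edgeR, Benjamini-Hochberg adjusted). Without 1 library at a time the CT1BA5 value ranged from -8.39 to -6.58. Mrc2, the uptake receptor for collagen fragments, rose in both tumour groups, with 131 and 116, then 75.3 and 79.6, and 46.0, 54.4 and 47.9 CPM. Ddr2, a receptor kinase for fibrillar collagen, had 47.6 and 39.8 CPM in CT1BA5, 76.9 and 84.2 CPM in BMFA3 and 77.1, 84.8 and 84.7 CPM in parental libraries, and fell in CT1BA5 (adjusted p = 9.14e-09) but did not pass in BMFA3 (adjusted p = 0.747, same test).

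**Figure D5:**
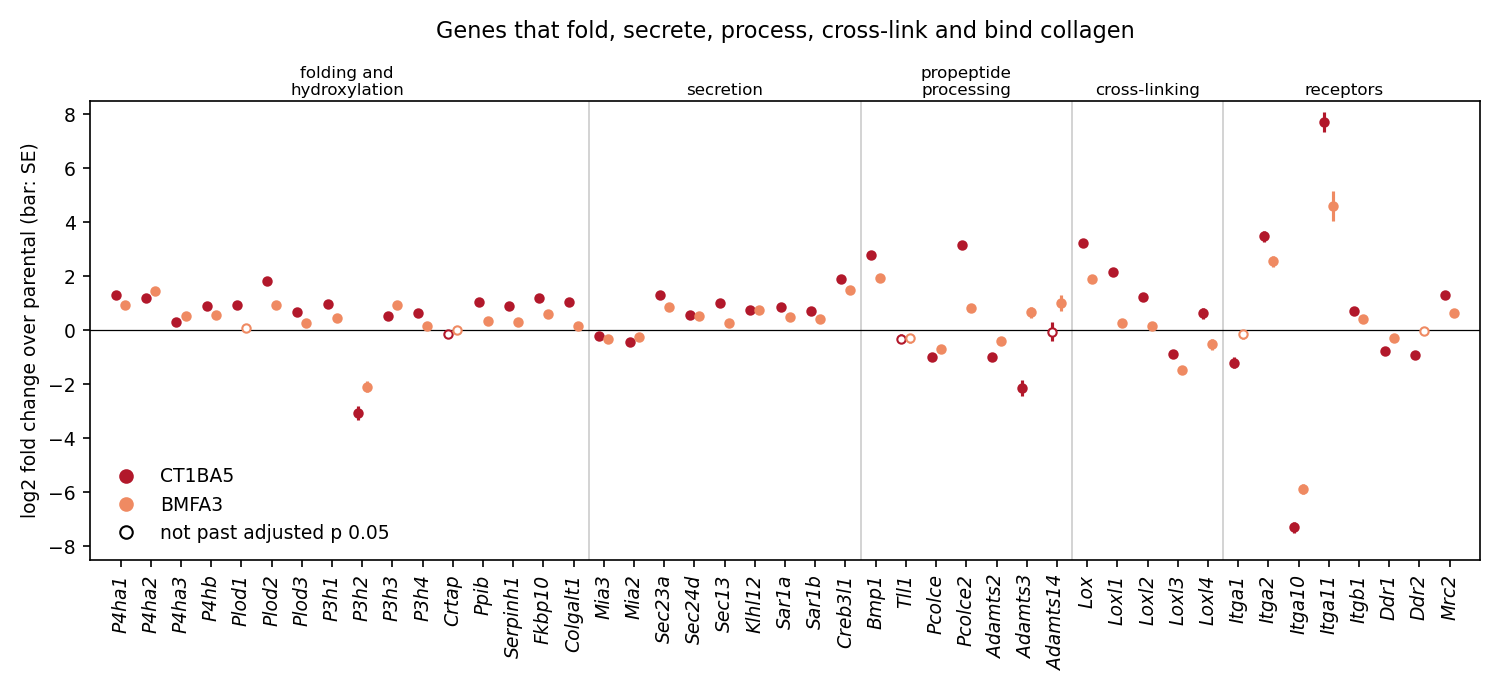
Log2 fold change over parental cells (y axis, bar SE) of the tested genes of 5 collagen-handling lists (x axis), in CT1BA5 (dark red) and BMFA3 (orange) cells. Open points did not pass an adjusted p of 0.05; P3h2 is the folding gene that passed as lower, in both groups, and Itga11 and Itga10 are the extremes among receptors.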

How the data were processed

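The authors deposited 1 table of raw read counts per Ensembl gene for 7 RNA-seq libraries made from column-purified RNA with standard Illumina protocols, per the labels. The submitters' processing notes name CASAVA, DESeq2 1.24.0 and the mm10 build with no role, while for the aligner, the counter and strand the entry is not given in the sources used here. Of 54532 gene IDs, 54409 matched the GENCODE M21 annotation. The counts were filtered with filterByExpr by group (13784 genes, 99.92% of counts) and scaled by TMM, and CPM values use these library sizes. A design with 3 groups and 4 contrasts was tested with edgeR 4.0.16 (quasi-likelihood F test, R 4.3.3, Benjamini-Hochberg over all tested genes, threshold 0.05), and SE is the size of the log2 fold change over the root of F. The fit was tested on simulated data with known changes. Values in every library are given for tested members that averaged 10 CPM or more in a group and for the 3 called members with the highest and the 3 with the lowest log2 fold change in each comparison; list genes were 10 preset ones plus the called gene with the largest and smallest change per list. Members, classes and lists were chosen with earlier results of these data known. Intervals and floors (3 counts over a group, 95% intervals) cover counting error only. Same-numbered libraries did not deviate together (correlations of deviations -0.101 to 0.0769), so the numbers were not used to pair samples. Alternatives were RLE scaling, library size alone, no filter, another filter, DESeq2 1.42.0, limma-voom (limma 3.58.1), an adjusted p of 0.01, a test against a 2-fold change, the compared groups alone, a replicate block and each library left out. Promoter windows come from RefSeq (GRCm38.p6).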

Additional observations from a re-analysis of the deposited data

Results flagged for a closer look

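The 2 tumour groups differed from each other in their change over the shared parental libraries for 24 tested collagen genes, by the contrast of CT1BA5 with BMFA3 in the quasi-likelihood test of edgeR (Benjamini-Hochberg), in which 50.8% of all tested genes passed. In fibrillar genes this difference was 0.91 for Col1a1, 0.56 for Col1a2, -1.11 for Col3a1, 0.58 for Col5a1, 0.80 for Col5a2, 4.50 for Col5a3, 0.50 for Col11a1, -1.51 for Col24a1 and 1.33 for Col27a1 on the log2 scale. That of Col24a1 did not pass without BMFA3 replicate 1 (adjusted p = 0.0982), BMFA3 replicate 2 (adjusted p = 0.0581) or CT1BA5 replicate 1 (adjusted p = 0.178). In type IV genes it was -0.25 for Col4a2, -1.18 for Col4a5 and -1.76 for Col4a6, and in type VI genes -2.95 for Col6a1, -3.42 for Col6a2 and 4.76 for Col6a3. In the FACIT genes it was 0.38 for Col12a1 and 0.65 for Col16a1, and in the short-chain genes 1.82 for Col8a1, 3.47 for Col8a2 and 3.08 for Col10a1. That of Col10a1 ranged from 2.45 to 4.12 without 1 library at a time. The difference was 3.38 for Col7a1, -0.84 for Col15a1 and 0.98 for Col18a1, and Col23a1 was at least 11.9-fold higher in CT1BA5 than in BMFA3. Col6a3, Col10a1 and Col23a1 passed the filter on low counts through CT1BA5 alone. Col7a1 passed it through the tumour groups alone, and Col24a1 through BMFA3 and parental cells alone. In CT1BA5 both the large rises of Col5a3 and Col7a1 and the large falls of Col6a1 and Col6a2 exceeded those of BMFA3. Col6a3 was called higher over parental cells in CT1BA5 alone, while Col8a1 fell more in BMFA3. No group had 4 or more libraries, so single libraries were not screened for standing apart.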

How the results depend on the processing

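No collagen gene changed direction while called under any alternative. Tested against a 2-fold change, 11 members rose and 8 fell in CT1BA5, 5 rose and 6 fell in BMFA3, 7 were higher and 3 lower in CT1BA5 than in BMFA3, and 7 rose and 7 fell with both tumour groups averaged, beside 21.8%, 12.4%, 6.35% and 17.2% of all tested genes called. Without 1 library at a time, called members in CT1BA5 over parental numbered 13 to 14 higher and 11 to 14 lower, in BMFA3 7 to 8 higher and 13 to 17 lower, in CT1BA5 over BMFA3 15 to 16 higher and 6 to 9 lower, and with both tumour groups averaged 9 to 10 higher and 12 to 14 lower. Library size alone in place of TMM shifted the median of all genes by -0.234 in CT1BA5 over parental. The log2 ratio of class sums in CT1BA5 over parental was then 0.70 (fibrillar), -1.64 (type IV), -4.36 (type VI) and -0.24 (FACIT). With TMM and without 1 library at a time, the same ratios ranged from 0.86 to 0.97, -1.51 to -1.31, -4.24 to -4.01 and -0.087 to 0.075. By longest transcript, the ratio of Col1a1 to Col1a2 was 3.06 in CT1BA5, 2.40 in BMFA3 and 3.89 in parental cells, that of Col5a1 to Col5a2 0.345, 0.401 and 0.168, that of Col4a1 to Col4a2 1.65, 1.53 and 1.38, and that of Col6a1 to Col6a2 4.23, 3.05 and 3.45. With a replicate block, 14 members rose and 11 fell in CT1BA5, 8 rose and 14 fell in BMFA3, 16 were higher and 8 lower in CT1BA5 than in BMFA3, and 9 rose and 12 fell with both tumour groups averaged, beside 64.3%, 51.1%, 47.0% and 61.6% of all tested genes called. The block lost the calls of Col16a1 (adjusted p = 0.0601) and Col23a1 (adjusted p = 0.0681) in BMFA3, of Col15a1 in CT1BA5 (adjusted p = 0.0729) and of Col20a1 in both, in edgeR's quasi-likelihood test. It added a call of Col6a3 as lower in BMFA3 (log2 -1.85, adjusted p = 0.0285, same test). Members under about 1 CPM rest on a few counts, so a missed call there does not show an equal level.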
